A study of Mus musculus with 4 samples.

Results

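In a sort of mouse T follicular helper (Tfh) cells, the cells that held Il2 transcripts after restimulation were compared with the cells that held none. The members were chosen by the measured Il2 count itself. A cell needed 500 or more genes, at most 10% mitochondrial UMIs (unique molecular identifiers, the counted transcript molecules), no UMI of Cd79a, Cd8a, Cd8b1 or Foxp3, and 1 or more UMIs over Cd3d, Cd3e and Cd3g. Of the 2856 such T cells that a hashtag antibody assigned to a mouse, 883 had 2 or more Il2 UMIs and are called producers, 1544 had none and are called Il2-negative, and 429 had exactly 1 and were put on neither side. The 2427 cells compared came from the 3956 barcodes of the Tfh sort, and the whole series holds 11602.

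All mice received 10 μg of an extract of the mould Alternaria alternata with 25 μg of NP-OVA (a hapten-coupled ovalbumin) through the nose. On day 7, TCRβ+ CD4+ CD44+ PD-1+ CXCR5+ cells were sorted from the mediastinal lymph node of C57BL/6 mice and stimulated with PMA and ionomycin, which bypass the T-cell receptor, for 30 minutes before capture. The second population, used here for comparison, was sorted as GFP+ activated CD4 T cells from C57BL/6 4GET IL-4 Reporter mice, a strain with a green fluorescent protein read from the Il4 locus, and was treated in the same way. The labels give neither the age nor the sex of the mice, and no unstimulated or unimmunised sample is among the samples used here. Each sort was 1 lane of 3 pooled mice, so mice are the replicates and the lane has none.

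Interleukin-2 is the growth factor that activated T cells secrete and bind through a receptor of an alpha, a beta and a common gamma chain. The receptor signals through JAK kinases and STAT5, and STAT5 with its target Prdm1 (Blimp-1) opposes the Tfh regulator Bcl6. Transcription of Il2 after stimulation depends on NFAT, AP-1, NF-kB and Oct factors, and it is transient. Tfh cells help B cells in the follicle through CD40 ligand, IL-21 and IL-4. In mice, activated CD4 T cells that transcribe Il2 early have been linked to the Tfh fate, while their neighbours that receive IL-2 are turned from it.

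The promoter windows of 3 cytokine genes are shown because Il2 defines the comparison, Il21 is its neighbour on the chromosome and rose with it, and Tnf was another stimulated cytokine gene that rose. They are RefSeq sequences of GRCm38.p6, read 5′ to 3′ along the gene, from 250 bases before to 50 bases after the start. Capitals mark each GGAAA on either strand (TTTCC on the printed strand), the core recognised by NFAT and other Rel-homology and ETS factors.
Il2, chr3:37125905-37126204, minus strand: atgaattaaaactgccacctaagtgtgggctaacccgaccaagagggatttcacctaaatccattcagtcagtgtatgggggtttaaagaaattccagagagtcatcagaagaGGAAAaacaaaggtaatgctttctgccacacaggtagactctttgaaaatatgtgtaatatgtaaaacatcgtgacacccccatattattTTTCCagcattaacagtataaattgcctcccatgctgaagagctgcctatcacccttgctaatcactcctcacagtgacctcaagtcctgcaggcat
Il21, chr3:37232587-37232886, minus strand: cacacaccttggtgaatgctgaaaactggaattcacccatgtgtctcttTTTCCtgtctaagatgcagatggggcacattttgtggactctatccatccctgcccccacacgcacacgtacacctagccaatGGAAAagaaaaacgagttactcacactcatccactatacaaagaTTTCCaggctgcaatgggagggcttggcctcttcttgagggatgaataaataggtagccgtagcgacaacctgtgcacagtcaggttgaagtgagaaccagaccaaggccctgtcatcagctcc
Tnf, chr17:35201958-35202257, minus strand: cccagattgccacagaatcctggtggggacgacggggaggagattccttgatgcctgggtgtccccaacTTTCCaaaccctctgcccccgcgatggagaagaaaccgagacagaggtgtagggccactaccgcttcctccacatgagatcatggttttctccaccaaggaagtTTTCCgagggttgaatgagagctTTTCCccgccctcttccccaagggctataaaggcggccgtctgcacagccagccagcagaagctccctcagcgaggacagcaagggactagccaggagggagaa

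The core occurred 2 times in the Il2 window, 3 times in the Il21 window and 3 times in the Tnf window. It is a frequent word. It was present in 61.3% of 27025 RefSeq promoters, in 59.9% of the 5910 promoters matched to a tested gene, in 67.6% of 410 promoters of genes higher in producers and in 60.2% of 264 promoters of genes lower in producers. The AP-1 word TGAGTCA (or TGACTCA) was in none of the 3 windows and in 3.66% of the promoters of higher genes, against 3.01% of those tested. These matches describe letters in a window, and the deposited data hold no measurement of binding.

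In the GENCODE M21 annotation of GRCm38, Il2 lies on the minus strand of chromosome 3 from 37120523 to 37125959, and Il21 on the same strand from 37222759 to 37232636, with 96.8 kb between them. Of the other genes within 500 kb, 4932438A13Rik was lower in producers, with a log2 change of -0.43 (edgeR adjusted p = 0.015), but did not pass at matched depth (-0.16, adjusted p = 0.64), without mouse 1 (-0.43, adjusted p = 0.098) or without mouse 2 (-0.41, adjusted p = 0.10). Nudt6 (-0.39, adjusted p = 0.52) and Spata5 (-0.14, adjusted p = 0.82) did not pass. Adad1, which overlaps the end of Il2 on the other strand, had 3 UMIs in all producers and 1 in all Il2-negative cells. Il21 was the only tested gene of that interval that passed as higher. Adad1 and the genes not named here were below the count filter and not tested, among them Cetn4 with 30 UMIs in producers and 23 in Il2-negative cells.

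A producer held a median of 7 Il2 UMIs, with quartiles of 3 and 16 and a highest count of 90. Just inside the threshold stood 158 cells with exactly 2 UMIs, and just outside it the 429 cells with 1. Producers were 30.4%, 29.9% and 33.6% of the T cells of mice 1, 2 and 3, and 30.9% in all (exact Clopper-Pearson 95% interval 29.2% to 32.7%, counting error only). In the same lane, cells with 2 or more Cd79a UMIs and no Cd3 UMI, which as B-lineage cells should lack Il2, reached 2 Il2 UMIs in 3 of 340 cells (0.882%, interval 0.182% to 2.56%) at a median of 2048 UMIs against 2751 in the T cells. At least 1 Il2 UMI was present in 33 of those B-lineage cells (9.71%) and in 1312 of the 2856 T cells (45.9%), producers included. Among T cells with a Foxp3 UMI, which the rule leaves out, 9 of 63 had 2 or more Il2 UMIs (14.3%, interval 6.75% to 25.4%).

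Producers were the deeper cells. Without their Il2 UMIs they held a median of 3486, 3329 and 3803 UMIs in mice 1, 2 and 3, against 2468, 2418 and 2499 in Il2-negative cells, and the same order held for genes per cell (1399, 1333 and 1454 against 1113, 1105 and 1131). The median mitochondrial share was 3.27%, 3.30% and 3.30% in producers and 3.53%, 3.57% and 3.68% in Il2-negative cells. Cells with 2 or more UMIs over 8 mitosis genes made up 16.5%, 16.8% and 20.8% of producers and 10.5%, 10.6% and 13.9% of Il2-negative cells. The comparison was therefore repeated at matched depth, where each producer was paired with 1 Il2-negative cell of the same mouse within 10% of its UMIs. That left 297, 317 and 192 pairs, whose medians were 3302, 3208 and 3518 UMIs in producers and 3208, 3166 and 3260 in Il2-negative cells.

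UMIs were summed per mouse and side and compared with the mouse as a block. Each of the 6 sums held between 1051755 and 1921611 UMIs. With all cells, 511 of 7613 genes were higher in producers (6.71%) and 352 were lower (4.62%) at an edgeR adjusted p under 0.05, 11.3% in all. At matched depth 252 of 7124 genes were higher (3.54%) and 125 lower (1.75%), 5.29% in all. These shares are the background for the counts of list members given below for the Tfh sort with all cells or at matched depth. DESeq2 called 202 genes. In edgeR without mouse 1, 223 of 7455 genes were higher and 147 lower, 370 in all. Without mouse 2, 383 of 7275 genes were higher and 250 lower, and without mouse 3, 502 of 7916 were higher and 338 lower. These counts are the background for list members in the fits that leave out a mouse. The 3 producer values lay wholly above the 3 others for 14.0% of the genes tested and wholly below for 12.8%. Of the 511 higher genes 167 were also called higher at matched depth, and of the 352 lower genes 75 were called lower. The median log2 change over all tested genes was -0.015 with all cells and -0.0034 at matched depth. Levels below are CPM (UMIs of a gene scaled to a common total of all UMIs) in mice 1, 2 and 3, and changes are log2 changes with standard errors. A sum cannot tell more transcribing cells from more RNA in each, so shares of cells with a UMI are added for several genes.

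Il21, Tnf and other T cell cytokine genes were higher in producers. Of 17 such genes measured, 10 rose and 2 fell with all cells (median log2 change 0.44), and 8 rose and 1 fell at matched depth (0.56). Il21, the cytokine that drives germinal centre B cells, stood at 344, 297 and 301 CPM in Il2-negative cells and at 463, 483 and 440.3 CPM in producers. The 3 producer values lay above all 3 others, and the change was 0.56 ± 0.062 (edgeR adjusted p = 3.1e-07), with 0.69 at matched depth. With each cell thinned to 2000 UMIs, 39.4% ± 4.65 of Il2-negative cells and 51.8% ± 2.03 of producers had an Il21 UMI (mean ± SD, n = 3 mice). Thinning left out 153, 173 and 90 Il2-negative cells and 23, 24 and 13 producers. Without thinning those shares were 44.6% and 71.3%.

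Tnf, the inflammatory cytokine that lymphocytes transcribe within minutes of stimulation, was at 627, 629 and 621 CPM in Il2-negative cells and 868, 828 and 806 CPM in producers. The Il2-negative values were almost equal and all producer values were above them. The change was 0.42 ± 0.046 (edgeR adjusted p = 2.6e-07), and 0.68 at matched depth. Lif, a cytokine of the IL-6 family, rose by 0.62 ± 0.11, Tgfb1, which encodes a regulatory cytokine, by 0.43 ± 0.066, and the epidermal growth factor family member Areg by 0.44 ± 0.072, and these 3 also passed at matched depth. The 2 cytokine genes that fell were Ltb, a subunit of membrane lymphotoxin, at -0.29 ± 0.056 and Il16 at -0.61 ± 0.12. Ltb did not pass at matched depth (-0.12, edgeR adjusted p = 0.39), and Il16 did (-0.66).

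Il4, the type 2 cytokine by which Tfh cells steer antibody class, was at 829, 968 and 739 CPM in Il2-negative cells and 1180.0, 1027 and 1013 CPM in producers. All producer values were above all Il2-negative ones, although mouse 2 differed little between its sides. The change of 0.34 ± 0.056 passed (edgeR adjusted p = 1.0e-04) and was 0.43 at matched depth. It did not pass without mouse 1 (0.24, adjusted p = 0.055), nor without the cells that held a UMI of Il13, Il5, Il3 or Il1rl1 (0.11, adjusted p = 0.15). The share of cells with an Il4 UMI at 2000 UMIs was 47.3% ± 3.35 in Il2-negative cells and 50.5% ± 5.01 in producers, less than 1 SD apart.

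Ifng, the type 1 cytokine gene, was at 107, 87.0 and 110.0 CPM in Il2-negative cells and 251, 115 and 152 CPM in producers, where mouse 1 was the highest. Its change was 0.76 ± 0.12 with all cells (edgeR adjusted p = 4.8e-05) and 1.61 ± 0.13 at matched depth, and it came from 110 Il2-negative cells and 94 producers with a UMI. Il3, Il5 and Il13, which sit with type 2 effector cells, also passed but rested on few cells. Il5, the eosinophil growth factor, had UMIs in 4 Il2-negative cells and 9 producers, with 92.3% and 43.1% of each side's UMIs in a single cell, and changed by 2.10 ± 0.40. Il3, a growth factor of basophils and mast cells, had UMIs in 13 and 24 cells and changed by 1.23 ± 0.17, with 0.50 (edgeR adjusted p = 0.22) at matched depth. Il13, the mucus-inducing cytokine, changed by 1.30 ± 0.25 with all cells, by 0.70 (edgeR adjusted p = 0.17) at matched depth and by 0.49 (adjusted p = 0.31) without mouse 1. Csf2 had UMIs in 2 Il2-negative cells and 8 producers and was not tested.

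Cd40lg and 5 other ligand genes of the TNF superfamily were higher in producers, while Ltb, given above, was lower. Of the 8 measured genes of the list of TNF ligands and costimulation, which does not hold Ltb, 6 rose and 1, Cd28, fell, with all cells (median 0.51) and at matched depth (0.66). Cd40lg, the ligand by which Tfh cells license B cells, was at 1041, 1093 and 943 CPM in Il2-negative cells and 1369, 1348 and 1331 CPM in producers. Its producer values were close to each other and lay above all others, with a change of 0.39 ± 0.041 (edgeR adjusted p = 1.5e-07) and 0.62 at matched depth. Tnfsf8, the ligand of CD30, was at 2494, 2599 and 2631 CPM and 3956, 3342 and 3991 CPM, a change of 0.54 ± 0.040 (0.63 at matched depth).

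Tnfsf11, which encodes RANKL, was at 166, 212 and 208 CPM in Il2-negative cells and 355, 352 and 329 CPM in producers, with no overlap. The change was 0.83 ± 0.077 (edgeR adjusted p = 1.8e-08) and 1.05 at matched depth. At 2000 UMIs per cell, 27.3% ± 2.78 of Il2-negative cells and 41.9% ± 1.52 of producers had a Tnfsf11 UMI. The unthinned shares were 33.6% and 60.1%, against 2.29% of B-lineage cells. Tnfsf14 (LIGHT) rose by 0.91 ± 0.13, Fasl, the death ligand, by 0.83 ± 0.12 and Tnfsf9 (4-1BB ligand) by 0.49 ± 0.079, with 1.04, 1.14 and 0.69 at matched depth. Icos, a costimulatory receptor of Tfh cells, was at 0.15 ± 0.10 and did not pass (edgeR adjusted p = 0.36). Among receptors, Tnfrsf4 (OX40), a costimulatory receptor that STAT5 induces, was at 685, 700.4 and 683 CPM and 1075, 1052 and 1008 CPM, a change of 0.60 ± 0.043 (edgeR adjusted p = 2.2e-10). The value was 0.59 at matched depth. Tnfrsf9 (4-1BB) was at 0.38 ± 0.12 (edgeR adjusted p = 0.032; 0.53 at matched depth), and it did not pass without mouse 1 (0.30, adjusted p = 0.33) or without mouse 3 (0.31, adjusted p = 0.090).

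**Figure D1:**
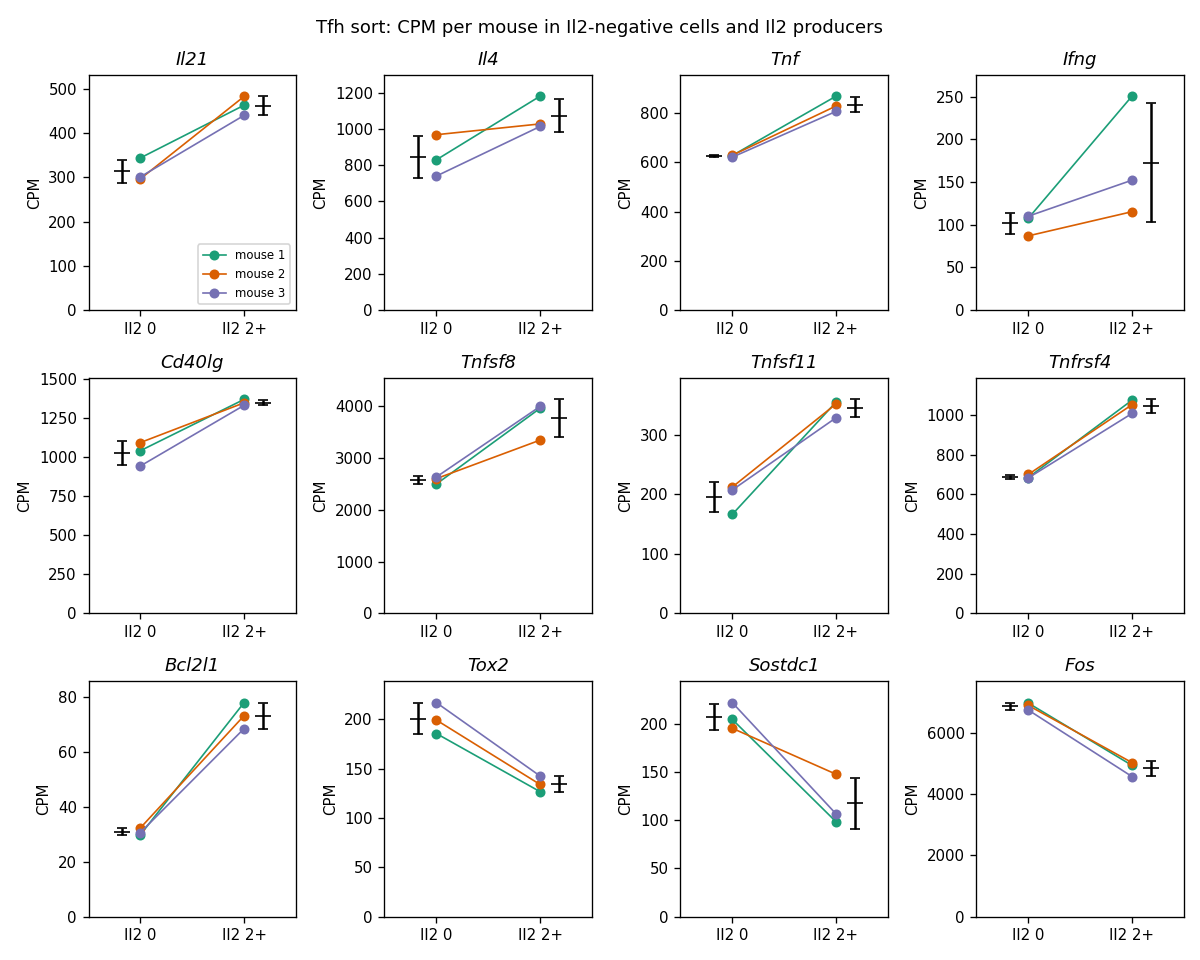
Levels of 12 genes in CPM (vertical axes, from 0) in Il2-negative cells (Il2 0) and producers (Il2 2+) of the Tfh sort. Points are mice, lines join the 2 sides of a mouse, and black bars give the mean ± SD of 3 mice; the first 9 genes are higher in producers in all 3 mice, and Tox2, Sostdc1 and Fos are lower in all 3.

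Bcl2l1, which encodes the antiapoptotic Bcl-xL, was at 29.8, 32.3 and 30.6 CPM in Il2-negative cells and 77.9, 73.2 and 68.5 CPM in producers. No values overlapped, and the change of 1.25 ± 0.14 (edgeR adjusted p = 3.7e-07) was nearly the same at matched depth (1.26). At 2000 UMIs, 5.51% ± 0.846 of Il2-negative cells and 12.5% ± 1.00 of producers had a UMI of it. Bcl2, another antiapoptotic gene, was at 0.38 ± 0.11 (edgeR adjusted p = 0.022; 0.46 at matched depth), and it did not pass without mouse 1 (0.43, adjusted p = 0.074) or without mouse 2 (0.31, adjusted p = 0.18). Bcl2a1b rose by 0.53 ± 0.048 (0.66 at matched depth), though reads of the near-identical Bcl2a1 copies may be split between them. Of 14 genes of NF-kB feedback, which NF-kB induces to restrain itself or to protect the cell, 6 rose and 2 fell, and 6 rose and none fell at matched depth. Without mouse 1, where fewer genes passed over all, 3 rose and 1 fell, and without mouse 2 the rises numbered 4. Nfkbid rose by 0.19 ± 0.036 (0.45 at matched depth), while Tnfaip3 (A20) was lower at -0.34 ± 0.056 with all cells and did not pass at matched depth (-0.10, edgeR adjusted p = 0.56).

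The factors that act on the Il2 promoter went both ways with all cells, and more of them rose than fell at matched depth. Of 20 measured members 3 rose and 3 fell with all cells (median 0.013), against 6.71% higher and 4.62% lower over all genes. At matched depth 5 rose and 1 fell (0.20), against 3.54% and 1.75%. The NF-kB subunits Rel, at 0.34 ± 0.049, and Nfkb2, at 0.49 ± 0.11, rose, with 0.54 and 0.67 at matched depth. Pou2f2, which encodes Oct-2, rose by 0.52 ± 0.12 (0.60 at matched depth). Nfkb2 did not pass without mouse 2 (0.39, edgeR adjusted p = 0.052), nor Pou2f2 without mouse 1 (0.38, adjusted p = 0.14). The NFAT genes Nfatc1, at 0.10 (edgeR adjusted p = 0.55), Nfatc2, at -0.034 (adjusted p = 0.96), and Nfatc3, at -0.33 (adjusted p = 0.37), did not pass. The AP-1 genes that passed with all cells, Fos, Jun and Fosb, were lower, with Fosb at -0.016 (edgeR adjusted p = 0.94) at matched depth, while Junb (0.15) and Jund (0.23) passed as higher at matched depth.

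Fos, the AP-1 partner of Jun and an early gene of stimulation, was at 6974, 6897 and 6747 CPM in Il2-negative cells and 4938, 5029 and 4574 CPM in producers. All producer values were below all Il2-negative values, with a change of -0.50 ± 0.029 (edgeR adjusted p = 3.1e-12) and -0.25 ± 0.032 at matched depth. Jun was at 338, 346 and 251 CPM and 213, 194 and 179.7 CPM, a change of -0.68 ± 0.075, but did not pass at matched depth (-0.23, edgeR adjusted p = 0.20). Dusp1, a phosphatase that turns off MAP kinases, was at 1098, 1047 and 1091 CPM and 581, 673 and 621 CPM. It changed by -0.78 ± 0.049 (edgeR adjusted p = 1.4e-11) and by -0.53 at matched depth.

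Other immediate early genes split in 2 directions. Of 30 listed, 6 rose and 6 fell with all cells (median 0.021), while 15 rose and 1, Dusp1, fell at matched depth (0.21), against background shares of 3.54% higher and 1.75% lower there. Egr4 rose by 0.54 ± 0.048, Myc by 0.49 ± 0.063, Nr4a3 by 0.28 ± 0.061 and Irf4 by 0.41 ± 0.11, and all 4 passed at matched depth (0.59, 0.62, 0.51 and 0.51). Nr4a3 did not pass without mouse 1 (0.27, edgeR adjusted p = 0.052), nor Irf4 without mouse 2 (0.37, adjusted p = 0.054) or without mouse 3 (0.29, adjusted p = 0.080). Myc drives growth, and Irf4 and the Nr4a receptors scale with T-cell receptor signal strength. Rgs2, Klf6, Ppp1r15a, Zfp36 and Ier2 were lower with all cells, between -0.56 and -0.21, and none of these 5 passed at matched depth. Without mouse 2, Rgs2 (-0.33, edgeR adjusted p = 0.21) and Ier2 (-0.15, adjusted p = 0.088) did not pass either. Egr1 and Cd69 were at 0.020 and -0.086 with all cells and did not pass, and both passed at matched depth (0.19 and 0.22).

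Genes of Tfh identity went both ways. Of 26 measured, 4 rose and 10 fell with all cells (median -0.16), and of 25 at matched depth 7 rose and 5 fell (0.0076). The 4 that rose were Il21, Tnfsf8, Pdcd1 and Cd200. Pdcd1, which encodes the inhibitory receptor PD-1 that the sort gated on, was at 184, 228 and 188 CPM and 305, 245 and 239.7 CPM. Its change of 0.39 ± 0.089 (edgeR adjusted p = 0.0036) was 0.47 at matched depth and did not pass without mouse 1 (0.20, adjusted p = 0.27). Cd200, a surface glycoprotein abundant on Tfh cells, rose by 0.51 ± 0.064 (0.56 at matched depth).

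The Tfh genes that fell in both analyses were Id3, Sostdc1, Maf, Tox2 and Sh2d1a. Tox2, a chromatin factor of Tfh differentiation, was at 186, 199 and 217 CPM in Il2-negative cells and 127, 134 and 143 CPM in producers, a change of -0.58 ± 0.083 (edgeR adjusted p = 1.9e-05) and -0.60 at matched depth. Sostdc1, a secreted antagonist of Wnt and BMP signals, was at 204, 195 and 222 CPM and 98.3, 148 and 107 CPM, a change of -0.79 ± 0.10 (-0.59 at matched depth). Sh2d1a, which encodes the adaptor SAP that Tfh cells need for lasting contact with B cells, was at 416, 467 and 517 CPM and 339, 365 and 371 CPM, a change of -0.37 ± 0.058 (-0.37 at matched depth). For each of these 3 genes every producer value was below every Il2-negative value.

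Id3, an inhibitor of E proteins, was at 53.2, 39.1 and 37.3 CPM and 16.8, 20.7 and 14.3 CPM, a change of -1.30 ± 0.20 (edgeR adjusted p = 4.4e-05; -0.87 at matched depth). At 2000 UMIs it was seen in 7.26% ± 2.25 of Il2-negative cells and 2.36% ± 1.18 of producers. Maf, a transcription factor that promotes Il21 and Il4, was lower at -0.64 ± 0.094 (-0.54 at matched depth). Il6ra, Lef1, Tcf7, Tox and Izumo1r passed as lower with all cells, between -0.50 and -0.16, and none of them passed at matched depth. Without mouse 1, Lef1 (-0.25, edgeR adjusted p = 0.32), Tox (-0.31, adjusted p = 0.10) and Izumo1r (-0.12, adjusted p = 0.29) did not pass, without mouse 2 neither Il6ra (-0.46, adjusted p = 0.058) nor Izumo1r (-0.15, adjusted p = 0.089), and without mouse 3 Tox (-0.21, adjusted p = 0.13). Bcl6, the lineage factor, was at 15.8, 19.3 and 14.3 CPM and 13.8, 9.71 and 23.8 CPM, with a change of -0.19 ± 0.28 that did not pass (edgeR adjusted p = 0.73). Cxcr5, the chemokine receptor of the gate, was at 103, 117 and 128 CPM and 86.0, 123 and 98.9 CPM, and its change of -0.15 ± 0.11 did not pass either (edgeR adjusted p = 0.40). The summed level of the 8 Tfh marker genes was 1572 to 1671 CPM in Il2-negative cells and 1509 to 1602 CPM in producers, so both sides carried the markers of the label.

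The receptor for IL-2 gave no call with all cells. Of 8 genes of the receptor and its signalling none passed (median -0.11), and at matched depth 1 passed, Stat5a, at 0.70 ± 0.19 (edgeR adjusted p = 0.021). Il2ra, the alpha chain CD25, was at 18.1, 12.5 and 2.87 CPM and 22.6, 15.5 and 7.61 CPM, with a change of 0.42 ± 0.27 (edgeR adjusted p = 0.36). Il2rb, the beta chain, was at -0.17 ± 0.10 (adjusted p = 0.32) and Il2rg, the common gamma chain, at -0.077 ± 0.068 (adjusted p = 0.53). Of 12 genes of the IL-2 and STAT5 response 3 rose and 1 fell: Tnfrsf4 and Bcl2, given above, Cish, a STAT5-induced inhibitor of cytokine signalling, at 0.72 ± 0.17, and Socs3, a feedback inhibitor of IL-6 family signals, at -0.40 ± 0.10. Cish did not pass at matched depth (0.43, edgeR adjusted p = 0.27), and Socs3 was at 0.031 there. Without mouse 1, 1 of the 12 rose and none fell, with Cish at 0.59 (edgeR adjusted p = 0.15) and Socs3 at -0.43 (adjusted p = 0.073). Socs3 did not pass without mouse 3 either (-0.29, adjusted p = 0.072). Prdm1 had UMIs in 15 Il2-negative cells and 17 producers and was below the count filter.

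Of 9 measured genes put on a list of Il2 repressors, none rose and 2 fell, against 4.62% lower over all genes. Klf2, a factor of quiescence and recirculation, is on that list but is not an established repressor of Il2. The 2 that fell were Ikzf2 (Helios) at -0.43 ± 0.087 and Klf2 at -0.20 ± 0.063. Neither passed at matched depth (-0.29, edgeR adjusted p = 0.095, and 0.092, adjusted p = 0.63). Without mouse 1 neither passed (-0.37, edgeR adjusted p = 0.067, and -0.22, adjusted p = 0.15), and Klf2 did not pass without mouse 3 (-0.15, adjusted p = 0.25). Of 13 coinhibitory and anergy genes 3 rose and 4 fell (1 and 2 without mouse 1, 2 and 2 without mouse 2), and 4 rose and 2 fell at matched depth. Cd160, a receptor of the herpesvirus entry mediator, was at 40.3, 22.4 and 20.1 CPM and 73.6, 46.0 and 81.8 CPM, a change of 1.20 ± 0.17 (edgeR adjusted p = 1.6e-05) and 1.46 at matched depth. Ctla4, the inhibitory receptor that competes with CD28, was lower at -0.47 ± 0.066, Nt5e (CD73) at -0.72 ± 0.14 and Lag3 at -0.35 ± 0.10. At matched depth Ctla4 was at -0.31 and Nt5e at -0.55, and Lag3 did not pass (-0.051, edgeR adjusted p = 0.89). Nt5e did not pass without mouse 1 (-0.56, adjusted p = 0.058), nor Lag3 without mouse 2 (-0.10, adjusted p = 0.62). Cd28, the costimulatory receptor, was at 714, 754 and 753 CPM and 523, 576 and 483 CPM, a change of -0.48 ± 0.052 (-0.22 at matched depth).

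Of 20 T-cell receptor signalling genes 3 rose and 1 fell with all cells, against 11.3% of all genes called, and 6 rose and 1 fell at matched depth, against 5.29%. None of the 20 rose without mouse 1 or with DESeq2. The adaptor Lcp2 (SLP-76) rose by 0.32 ± 0.084, Bcl10, which links the receptor to NF-kB, by 0.26 ± 0.067 and the kinase Zap70 by 0.21 ± 0.060, and all 3 passed at matched depth. Without mouse 1 they were at 0.25, 0.28 and 0.24 (edgeR adjusted p from 0.067 to 0.21), and neither Bcl10 without mouse 3 (0.21, adjusted p = 0.076) nor Zap70 without mouse 2 (0.18, adjusted p = 0.14) passed. Prkcq, the kinase that PMA engages among others, was lower at -0.52 ± 0.11 (-0.47 at matched depth) and did not pass without mouse 2 (-0.29, edgeR adjusted p = 0.16). Of 10 naive and recirculating cell genes none rose and 4 fell, S1pr1, Lef1, Tcf7 and Klf2 (1 fell without mouse 1), and none of the 8 tested at matched depth passed. None of 11 interferon-stimulated genes passed with all cells and none of 10 at matched depth, although 1 fell without mouse 2 and 1 rose without mouse 3.

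Among genes of 20 CPM or more that moved alike in 3 of 3 mice, the largest fall was that of Ddit4, an inhibitor of mTORC1 (REDD1), with 46.2, 38.5 and 54.5 CPM in Il2-negative cells and 11.7, 13.0 and 20.9 CPM in producers. The sides did not overlap, the change was -1.63 ± 0.20 (edgeR adjusted p = 1.8e-06), and it was -1.66 at matched depth. At 2000 UMIs, Ddit4 was seen in 7.12% ± 1.42 of Il2-negative cells and 1.24% ± 0.492 of producers. Gadd45a, a DNA damage and stress gene, was lower at -1.22 ± 0.24 but did not pass at matched depth (-0.80, edgeR adjusted p = 0.095). The phosphodiesterase gene Pde2a was lower at -1.17 ± 0.23 (-0.89 at matched depth) and Padi4, a peptidylarginine deiminase, at -1.14 ± 0.13 (-0.96). Irf1, an interferon regulatory factor, was lower at -1.06 ± 0.16 (-0.85 at matched depth), and Cebpa, a myeloid transcription factor, at -1.05 ± 0.23 (-1.25).

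Among the largest rises, Ccl1, a chemokine that attracts CCR8+ cells, was at 162, 276 and 49.7 CPM and 855, 479.9 and 394 CPM. Levels differed several-fold between mice of a side, and 77 Il2-negative cells and 103 producers had a UMI. Its change was 1.76 ± 0.18 (edgeR adjusted p = 6.4e-08) and 1.39 at matched depth. Il1r2, the decoy receptor of IL-1, was at 35.1, 36.5 and 29.7 CPM and 101, 65.4 and 90.3 CPM, a change of 1.29 ± 0.15 (1.16 at matched depth). The galectin gene Lgals7 rose by 1.01 ± 0.11 (0.68 at matched depth). Sult2b1, a sulfotransferase, was at 1.06 ± 0.27 (1.32 at matched depth) and did not pass without mouse 1 (1.09, edgeR adjusted p = 0.10) or without mouse 3 (0.76, adjusted p = 0.079). Sulfiredoxin (Srxn1) was at 0.96 ± 0.21 and did not pass at matched depth (0.54, edgeR adjusted p = 0.21) or without mouse 1 (0.73, adjusted p = 0.13).

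Genes of DNA replication and mitosis gave other calls at matched depth than with all cells. Of 25 such genes 13 rose and 1 fell with all cells (median 0.29), and none rose and 11 fell at matched depth (-0.28). Without mouse 1, where fewer genes passed over all, 4 rose, and without mouse 2 the rises numbered 7. Mcm3, a subunit of the replicative helicase, was at 66.0, 74.5 and 75.6 CPM and 130.4, 132 and 124 CPM, a change of 0.85 ± 0.11 (edgeR adjusted p = 1.9e-06), and of 0.26 (adjusted p = 0.25) at matched depth. Hmgb2, a chromatin protein of cycling cells, passed as higher with all cells (0.19) and as lower at matched depth (-0.25), as did Stmn1 and Tubb5, which act on microtubules, the only 3 of the 13 called in the other direction there. Hmgb2 did not pass without mouse 1 (0.15, edgeR adjusted p = 0.065). Cenpf, a kinetochore gene, was lower in both (-0.77 and -1.57) but did not pass with all cells without mouse 2 (-0.52, edgeR adjusted p = 0.14). Without the cells that held 2 or more UMIs of the 8 mitosis genes, 3 of 16 measured members rose and none fell. Over all 6550 genes of that fit 334 rose and 181 fell. At matched depth without those cells 1 of 15 members rose, while 196 of all 6089 genes rose and 78 fell. The 8 genes belong to this list themselves. Leaving out cells by their UMIs lowers these members by design, so the 2 fits cannot serve as a separate check of the list.

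Of 15 Myc-driven ribosome biogenesis genes 5 rose and none fell (median 0.38), and 3 rose at matched depth and 3 without mouse 1. Srm, the spermidine synthase gene, was at 26.3, 15.6 and 23.0 CPM and 47.3, 61.5 and 38.0 CPM, a change of 1.24 ± 0.20 (0.69 at matched depth). Ncl, which encodes nucleolin, rose by 0.47 ± 0.051 (0.40 at matched depth), and Npm1, nucleophosmin, by 0.45 ± 0.041 (0.24). Of 18 glycolysis and hypoxia genes 6 rose, between 0.16 (Pkm) and 0.40 (Pgk1), and none of the 17 tested at matched depth passed. Without mouse 1, 2 rose, with Pkm at 0.14 (edgeR adjusted p = 0.098). Pgk1 did not pass in any fit that left out a mouse (adjusted p from 0.064 to 0.18). The mitochondrial chaperone gene Hspd1 rose by 0.72 ± 0.084 (0.36 at matched depth), and Hsp90ab1, a cytosolic chaperone, by 0.28 ± 0.036 (0.16). Several of these housekeeping genes have pseudogene copies that could share their reads.

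**Figure D2:**
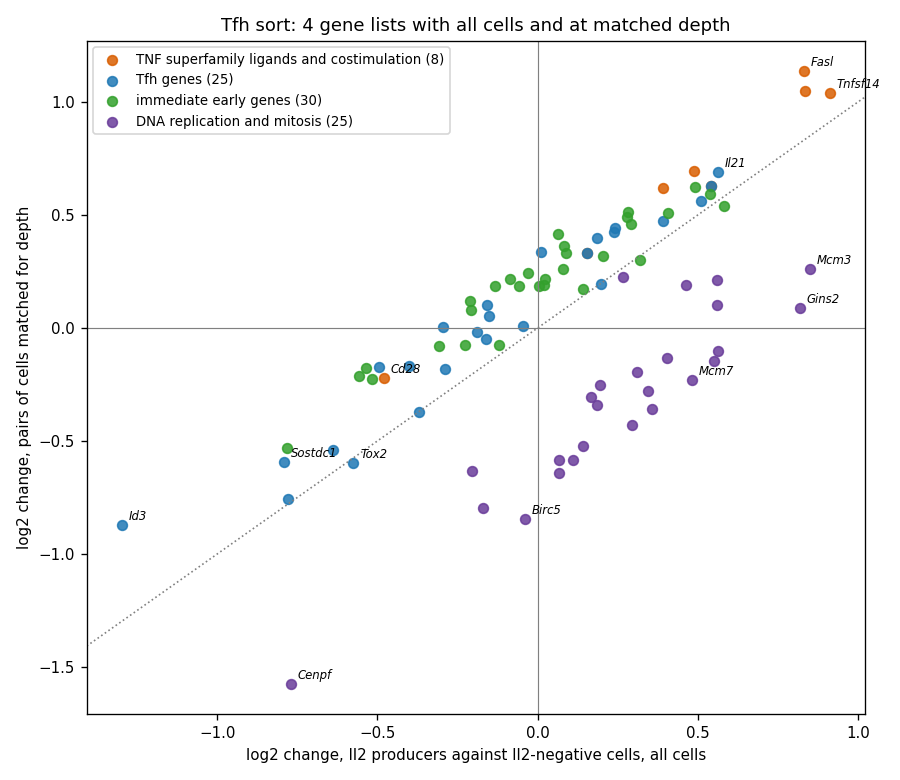
Log2 change in Il2 producers against Il2-negative cells of the Tfh sort with all cells (horizontal) and in pairs of cells matched for depth (vertical) for members of 4 gene lists, with the number of genes shown in brackets and the dotted line marking equal values. Of the TNF ligand and costimulation genes 6 lie in the upper right corner and Cd28 in the lower left, Tfh genes spread to both sides, and replication and mitosis genes lie below the line, with a median of 0.29 with all cells and -0.28 at matched depth.

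Transcripts used as markers of other cell types were present on both sides. The summed level of 14 B-cell marker genes was 1165 to 1491 CPM in Il2-negative cells and 789 to 866 CPM in producers, with Cd79a at 0 by the rule. All 5 tested B-cell genes were lower in producers, with Cd74, the class II invariant chain, at -0.90 ± 0.083, H2-Ab1 at -0.93 ± 0.11, H2-Aa at -1.06 ± 0.12, Ighm at -0.71 ± 0.080 and Igkc at -0.29 ± 0.087. At matched depth 4 of the 5 passed as lower (Cd74 at -0.88), and Igkc did not (0.10, edgeR adjusted p = 0.70), nor did Igkc pass without mouse 2 (-0.11, adjusted p = 0.62). At 2000 UMIs per cell, 34.6% ± 2.69 of Il2-negative cells and 35.6% ± 2.15 of producers had a Cd74 UMI, less than 1 SD apart. A single cell held 14.4% of the Cd74 UMIs of the Il2-negative side and 21.4% of those of H2-Aa.

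Macrophage and monocyte genes summed to 42.4 to 189.9 CPM in Il2-negative cells and 19.6 to 66.9 CPM in producers, with Adgre1 at 0. Lyz2, lysozyme of myeloid cells, was lower at -1.43 ± 0.21 with 71.7% of its Il2-negative UMIs in 1 cell. Without cells with 3 or more UMIs over Lyz2, Apoe, C1qa and C1qb it did not pass (-0.55, edgeR adjusted p = 0.41). Lyz2 itself took part in choosing the cells left out, so a smaller change there is built in. Apoe, an apolipoprotein of macrophages, was lower at -1.55 ± 0.28, and was at 1.01 where cells with 1 Il2 UMI were added to the producers. The other counts of the Tfh sort changed little without those few cells (862 genes called, against 863). Without every cell that held 1 UMI of 6 macrophage genes, 314 genes passed. The part of these transcripts in the other results was not tested beyond these counts. The 8 T-cell marker genes, 3 of which the rule used, summed to 9659 to 9913 CPM in Il2-negative cells and 8416 to 8747 CPM in producers. Markers of type 1 and cytotoxic cells summed to 398 to 621 and 436 to 648 CPM, with Prf1 at 0. Those of regulatory cells summed to 1724 to 1839 and 1853 to 2109 CPM, with Foxp3 at 0 by the rule. Of 9 tested regulatory markers 2 rose, Tnfrsf4 and Tnfrsf9, and 2 fell, Ikzf2 and Ctla4. In each mouse the rise of Tnfrsf4 given above was larger than the rise of this sum. The 14 genes of effector cells other than Tfh, such as Lgals1 and Vim, summed to 4544 to 4648 and 4265 to 4759 CPM.

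Levels were then followed over 5 classes of Il2 count, of 0, 1, 2 to 4, 5 to 9, and 10 or more UMIs. These classes also differ in depth, with medians of 2418 to 2499 UMIs in the class of 0 and 3803 to 4319 UMIs in the class of 10 or more, so the values are a description. Mean Fos levels were 6844, 6139, 5413, 5039 and 4278 CPM in that order, and mean Dusp1 levels were 1074, 934, 786, 651 and 497 CPM. Both means, and that of Tox2 down to 111 CPM in the class of 10 or more, were lower in each class than in the one before. Tnfsf11 was at 195, 198, 258, 301 and 408 CPM and Bcl2l1 at 30.8, 30.2, 53.6, 53.4 and 90.9 CPM, so neither was higher with 1 Il2 UMI than with none by more than the spread between mice. Il21 was at 313, 328, 429, 444 and 476 CPM. Ccl1, at 162, 75.2, 216, 208 and 930.3 CPM, and Il13, at 74.7, 45.8, 39.2, 12.3 and 361 CPM, had their highest means in the class of 10 or more.

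Within producers, the cells with more than the median of 7 Il2 UMIs (428 cells) were compared with those with 7 or fewer (455 cells). Of 5580 genes 21 were higher and 23 lower, 0.789% of those tested, and 16 passed at matched depth. Leaving out mouse 1 gave 189 calls, mouse 2 gave 11 and mouse 3 gave 19. Of 9 measured type 2 genes 2 rose, Il13 and Il5, and 7 did not pass. Il13 was at 56.8, 23.1 and 19.9 CPM in low producers and 565, 281 and 118 CPM in high producers, a change of 3.29 ± 0.19 (edgeR adjusted p = 5.6e-15) and of 2.82 at matched depth. Ccl1 was at 456, 111 and 137 CPM and 1206, 768 and 596 CPM, a change of 1.98 ± 0.14, and Il3 changed by 2.86 ± 0.29. Il5 changed by 6.24 ± 0.56, from at most 9 cells with a UMI.

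Tnfsf11 rose further from low to high producers, by 0.52 ± 0.11 (edgeR adjusted p = 0.013), but did not pass without mouse 2 (0.45, adjusted p = 0.54). Slc7a5, a transporter of large amino acids, rose by 1.54 ± 0.38 but did not pass at matched depth (1.45, edgeR adjusted p = 0.32), without mouse 2 (1.52, adjusted p = 0.48) or without mouse 3 (1.28, adjusted p = 0.27). Dusp1 was lower in high producers at -0.49 ± 0.089 and Fos at -0.27 ± 0.056. Neither passed without mouse 2 (-0.52, edgeR adjusted p = 0.18, and -0.22, adjusted p = 0.59) or without mouse 3 (-0.40, adjusted p = 0.12, and -0.27, adjusted p = 0.19), and Fos did not pass at matched depth (-0.14, adjusted p = 0.46). Il21 was at 0.031 ± 0.10 (edgeR adjusted p = 0.94), Il4 at 0.21 ± 0.079 (adjusted p = 0.24), Ifng at -0.053 ± 0.19 (adjusted p = 0.95) and Tnf at -0.036 ± 0.082 (adjusted p = 0.91), and none of these 4 passed.

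**Figure D3:**
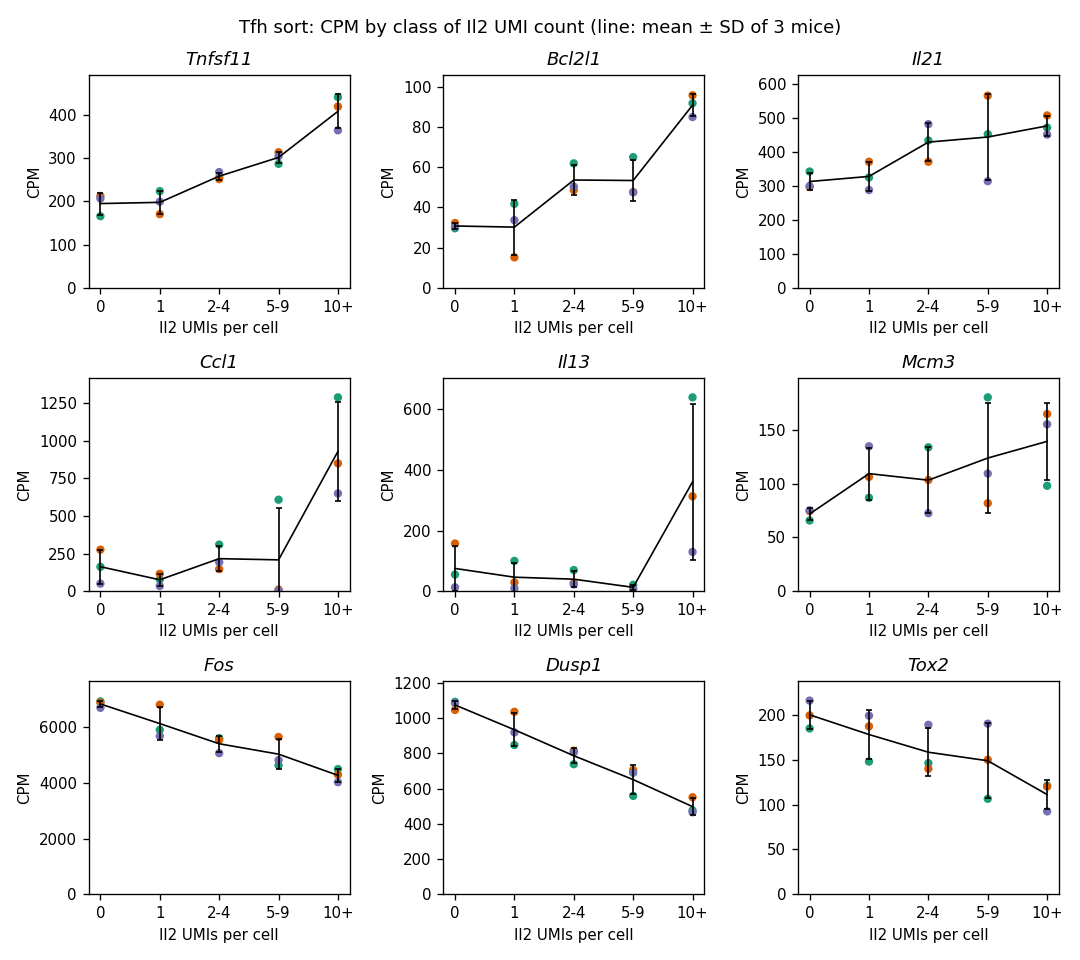
Levels of 9 genes in CPM (vertical axes, from 0) in T cells of the Tfh sort by Il2 UMIs per cell (horizontal). Points are mice 1 (green), 2 (orange) and 3 (purple), and lines with bars give the mean ± SD of 3 mice; Tnfsf11 and Bcl2l1 are higher from 2 UMIs on, Ccl1 and Il13 are high in the class of 10 or more, and Fos, Dusp1 and Tox2 are lower in each next class.

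The same rule was applied to the IL-4 reporter sort, which came from other mice. It held 514 producers and 2574 Il2-negative cells among 3342 T cells, and producers were 15.5%, 15.9% and 14.8% of the T cells of its 3 mice at a median depth of 6622 UMIs. That depth, the chemistry (version 3 against version 2), the strain and the sequencing run differ together with the gate, so they cannot be told apart. In this sort 1637 of 9811 genes passed (16.7%), 9.72% as higher and 6.96% as lower, and 239 of 8440 at matched depth (2.83%). Calls numbered 734 when the mouse was not a block, 801 when mouse 1 was left out and 654 when mouse 3 was. Of the 511 genes higher in the Tfh sort 488 also had a positive change in the reporter sort (95.5%). Of all 7585 genes tested in both sorts, 50.2% had a positive change in the reporter sort. Of the 511 genes, 366 were called higher there. That is 71.6% of the Tfh sort's list and 39.6% of the reporter sort's 925 among genes tested in both. The reporter sort called 12.2% of all genes tested in both as higher. Of 351 lower genes 316 had a negative change there (90.0%, against 49.8% of all genes tested in both). Of these 351, 170 were called lower, 48.4% and 27.6% of the lists, while the reporter sort called 8.11% of all genes tested in both as lower. At matched depth the shares called in both were 38.7% of the higher and 11.5% of the lower genes of the Tfh sort. The reporter sort called 2.22% of all genes tested in both as higher there and 0.973% as lower.

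Of 9 measured TNF ligand and costimulation genes 6 rose in this sort and 1 fell (6 of 8 and none at matched depth). Tnfsf14 rose by 0.95 ± 0.13, Tnfsf11 by 0.79 ± 0.059, Tnfsf8 by 0.49 ± 0.073, and Cd40lg by 0.31 ± 0.061. Bcl2l1 rose by 0.81 ± 0.14, Cd160 by 0.91 ± 0.16, Tnf by 0.44 ± 0.066 and Il21 by 0.29 ± 0.071. Tox2, at -1.01 ± 0.10, Sostdc1, at -1.63 ± 0.22, Id3, at -1.66 ± 0.17, and Ddit4, at -1.20 ± 0.17, were lower. At matched depth these genes kept their calls except Sostdc1 (-0.34, edgeR adjusted p = 0.40), and Il21 did not pass without mouse 3 (0.19, adjusted p = 0.19). Of 26 measured replication and mitosis genes 25 rose with all cells of this sort (median 0.49), and none rose and 1 fell at matched depth (-0.079). Il4, at -0.16 ± 0.10 (edgeR adjusted p = 0.34), and Ifng, at -0.14 ± 0.23 (adjusted p = 0.73), did not pass there, and Ifng was at 1.57 (adjusted p = 1.5e-05) at matched depth.

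The difference of the Il2 contrast between the sorts was tested in 1 edgeR fit over 12 sums, and 37 of 8937 genes passed (0.414%), 21 of 8535 at matched depth (0.246%). Cxcr5 was lower in reporter-sort producers (-1.05 ± 0.15; -0.26, adjusted p = 0.71, at matched depth), and its difference from the Tfh sort was -0.92 ± 0.19 (adjusted p = 0.017), but -0.33 (adjusted p = 0.81) at matched depth. Fos, lower in producers of the Tfh sort, was at 0.020 ± 0.046 in the reporter sort, a difference of 0.50 ± 0.057 (edgeR adjusted p = 6.4e-06; 0.44 and 8.8e-04 at matched depth). Dusp1 differed by 0.59 ± 0.075 (edgeR adjusted p = 3.9e-05), and did not pass at matched depth (adjusted p = 0.14). For Tnfsf11, Tnfsf14, Bcl2l1 and Il21 the differences were -0.059, 0.021, -0.46 and -0.29, none of which passed (edgeR adjusted p from 0.32 to 1.00).

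**Figure D4:**
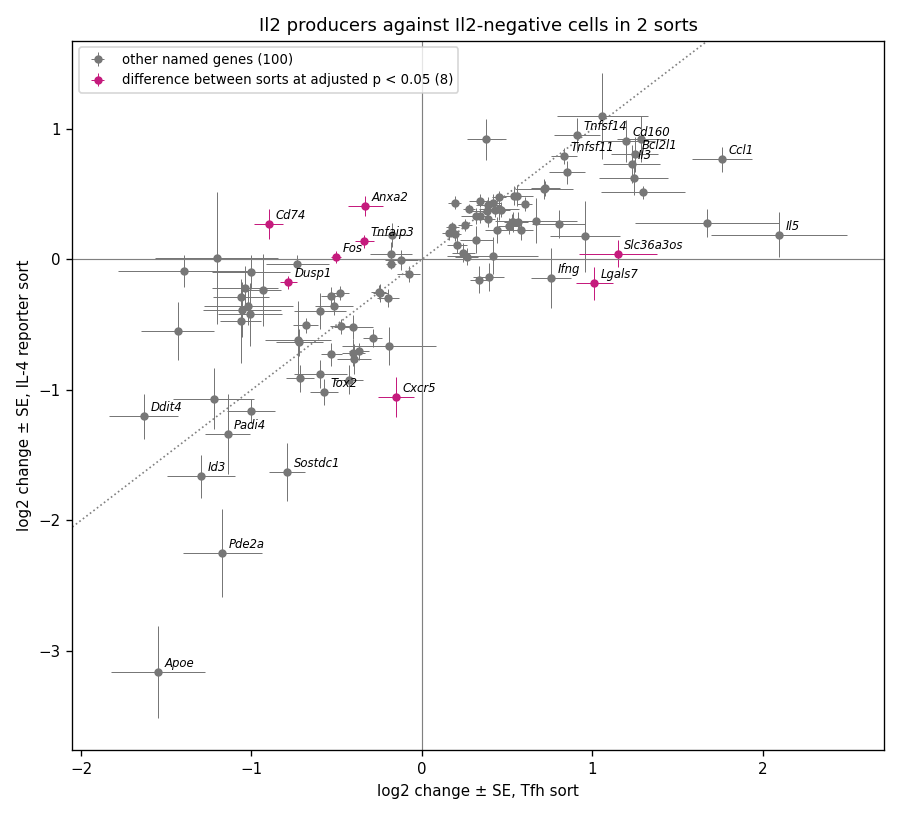
Log2 change ± SE in Il2 producers against Il2-negative cells in the Tfh sort (horizontal) and the IL-4 reporter sort (vertical) for named genes measured in both, with the dotted line marking equal changes. The 8 genes in magenta differed between sorts at an adjusted p under 0.05; most other points lie in the lower left and upper right parts.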

How the data were processed

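Single-cell 3′ RNA counts and hashtag antibody counts of 2 sorts were used, with 3 mice in each. Per the submitters' processing notes, reads were handled by bcl2fastq (2.18.0.12, 2.20.0.422) and Cell Ranger (2.2.0) on mm10, which is GRCm38. The header of the reporter matrix instead gives software version 3.0.2. The matrices the authors deposited hold whole UMI counts that were not normalized, and their hashtag tables hold raw tag counts of an unstated kind (molecules or reads). The labels name 1 more hashtag than the 3 that hold counts. The annotation release and the use of strand are not given in the sources used here.

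A barcode went to the mouse of its top hashtag where that had 10 or more counts and 3 times those of the second. This left 86 of 2942 T cells of the Tfh sort without a mouse, 85 of them with 10 or more counts of a second hashtag. In the reporter sort it left 499 of 3841, 492 of them with such a second hashtag. The limits on genes and mitochondrial share removed 40 of 3956 barcodes of the Tfh sort and 3061 of 7646 of the reporter sort. No other doublet caller was run, and doublets within a mouse remain. The 2 matrices share 1 barcode. The Tfh sort held 14857912 UMIs and the reporter sort 49264203. All columns of per-sample values were mapped.

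UMIs of 28692 features (67 duplicate symbols merged) were summed per mouse and side. Il2, Cd79a, Cd8a, Cd8b1 and Foxp3, which chose the cells, were left out. edgeR 4.0.16 (R 4.3.3, limma 3.58.1) tested the sums by quasi-likelihood with TMM scaling, the mouse as a block, genes kept by filterByExpr (minimum count 10) and Benjamini-Hochberg adjusted p under 0.05, on 6 sums with 2 residual degrees of freedom. The block follows the animal, since both sides of a pair are cells of 1 mouse. Deviations from the side means correlated at 0.02, 0.05 and 0.03 within mice and at -0.03 to 0.004 between mice. DESeq2 1.42.0 was an alternative, with others named in the closing section, and the scripts were tested on simulated data. Shares of the 2 sides with a UMI of a gene were computed after thinning cells to 2000 UMIs, except where given as unthinned. Those of B-lineage cells with an Il21 or Tnfsf11 UMI were computed without thinning and without regard to mouse assignment. Intervals are exact Clopper-Pearson at 95% and cover counting error only.

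The members, gene lists and tests were chosen with earlier results of these data known. Named genes are 17 chosen by symbol, the 15 largest rises and falls of the main comparison among called genes that reached 20 CPM and moved alike in every mouse, up to 4 called members per list, and the 5 largest each way between high and low producers. Other list members are named with their values. A few genes that the rule picked are not reported here.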

Additional observations from a re-analysis of the deposited data

Results flagged for a closer look

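The change with Il2 differed between the 2 sorts for 8 named genes at an edgeR adjusted p under 0.05, given here as reporter sort minus Tfh sort on the log2 scale with 3 mice in each sort. Gate, strain, chemistry and sequencing run differ together between the sorts and cannot be told apart. Cxcr5, the follicle-homing receptor, differed by -0.92 (adjusted p = 0.017), from -0.15 in the Tfh sort and -1.05 in the reporter sort. Its difference did not pass at matched depth (adjusted p = 0.81).

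The long non-coding gene Slc36a3os differed by -1.13 (adjusted p = 0.017; 0.034 at matched depth) and the galectin gene Lgals7 by -1.21 (0.003; 0.021 at matched depth). Both were higher in producers of the Tfh sort, at 1.15 and 1.01, and near 0 in the reporter sort, at 0.045 and -0.18. Fos differed by 0.50 (adjusted p = 6.4e-06; 8.8e-04 at matched depth), Dusp1 by 0.59 (3.9e-05; 0.14) and Tnfaip3 by 0.46 (0.0018; 0.027), and these 3 were lower in producers of the Tfh sort. Anxa2, an annexin of effector cells, was at -0.33 in the Tfh sort and 0.41 in the reporter sort, a difference of 0.72 (adjusted p = 0.004; 0.027 at matched depth). At matched depth it was at -0.66 in the Tfh sort and at -0.011 (edgeR adjusted p = 0.98) in the reporter sort. Cd74 differed by 1.15 (adjusted p = 8.4e-05; 0.30 at matched depth), with 14.4% of its Il2-negative UMIs of the Tfh sort in 1 cell.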

How the results depend on the processing

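Of the 100 named genes called in the Tfh sort, 39 were called under each of the 22 alternatives that gave them an adjusted p. Among them, Il21, Tnf, Ifng, Cd40lg, Tnfsf8, Tnfsf11, Tnfrsf4, Rel, Fos, Dusp1, Tox2, Sostdc1 and Sh2d1a had an adjusted p in all 22. Tnfsf14, Bcl2l1, Cd160, Id3 and Ddit4 had one in 21. The alternative with only cells that held a Tfh transcript chose cells partly by Il21, Tox2 and Sostdc1, so it is no separate check of these 3 genes. The 2 residual degrees of freedom limit each fit of 6 sums. The 863 calls became 202 with DESeq2 (which gave no adjusted p for 5166 genes), 377 in depth-matched pairs, 338 in cells thinned to 2000 UMIs, 515 without cycling cells and 504 without cells with an Ikzf2 UMI. Alternatives chosen after seeing the data gave 274 in depth-matched pairs without cycling cells, 314 without cells with a UMI of 6 macrophage genes and 862 without cells with 3 UMIs over 4 of them. Fewer cells enter most of these sums, and the cause of the changes was not tested. Producers from 1 Il2 UMI gave 665 calls and producers from 5 UMIs 1061. Leaving out 1 mouse gave 370 to 840 calls in the Tfh sort, 654 to 2082 in the reporter sort (1637 in full) and 11 to 189 between high and low producers (44 in full). Without the mouse as a block, the pairing by animal was ignored and the counts were 680, 734 and 31.

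In the reporter sort DESeq2 gave 534 calls, depth-matched pairs 239 and thinned cells 438. The difference between sorts gave 94 without a filter on low counts and 21 in depth-matched pairs (37 in full). High against low producers gave 4 with DESeq2, 86 without the filter and 16 in depth-matched pairs. RLE size factors changed none of these counts by more than 1.5 times. DESeq2 gave no adjusted p for 43 results of named genes over both sorts.

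In the Tfh sort 16 results of named genes changed sign, and those called in the new direction were Hmgb2, Stmn1 and, with producers from 1 Il2 UMI, Apoe. With producers from 1 Il2 UMI, Apoe was at 1.01 and Lyz2 at 0.15, and with only cells that held a Tfh transcript they were at 0.10 and 1.16. Without mouse 1, Ccl5 was at 0.22, and at -2.48 without mouse 3. In depth-matched pairs, Socs3 was at 0.031, Klf2 at 0.092, Hmgb2 at -0.25, Stmn1 at -0.28, Gapdh at -0.072 and Pkm at -0.054. In such pairs without cycling cells, Socs3 was at 0.077, Klf2 at 0.021, Gapdh at -0.051, Pkm at -0.079 and S100a6 at -0.16. In depth-matched pairs of the reporter sort, Ifng was at 1.57, Il2ra at -0.47, Bcl6 at 0.012, Srm at -0.014, Fosb at 0.085, Nt5e at 0.18, Hmgb2 at -0.082, Stmn1 at -0.18, Ldha at -0.079, Gapdh at -0.068, Pkm at -0.077, Hspe1 at -0.010, S100a6 at -0.34 and Anxa2 at -0.011. Ccl5 in the reporter sort was at -3.02 without mouse 2 and 0.91 without mouse 3. The cause of these reversals was not tested.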

Other observations

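Il10, which encodes the suppressive cytokine IL-10 and was not among the genes the naming rule picked, did not pass in the Tfh sort (-0.016 ± 0.10, edgeR adjusted p = 0.95) and was lower in producers of the reporter sort (-1.31 ± 0.069, adjusted p = 4.7e-08). The difference between sorts was -1.31 ± 0.12 (edgeR adjusted p = 2.2e-07) and -1.27 (adjusted p = 4.8e-05) at matched depth. In the Tfh sort Il10 stood at 151, 146 and 124 CPM in Il2-negative cells and 179.9, 124 and 115 CPM in producers of mice 1, 2 and 3. In the reporter sort it stood at 322, 366 and 187 CPM and 136, 131 and 81.6 CPM, and the sides did not overlap. It was chosen here after its values were seen.

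Ccl3, an inflammatory chemokine gene whose reads may be shared with its close paralog Ccl4, was at 0.53 ± 0.50 (edgeR adjusted p = 0.57) in the Tfh sort with all cells, 1.59 (adjusted p = 0.027) at matched depth, and -2.50 (adjusted p = 8.8e-05) in the reporter sort. Il22, a cytokine of type 17 and innate-like cells, was at 0.51 ± 0.26 (edgeR adjusted p = 0.23) in the Tfh sort and 2.24 ± 0.43 (adjusted p = 0.0023) in the reporter sort. Igfbp7, a secreted binding protein, rose by 1.82 ± 0.39 in the Tfh sort (edgeR adjusted p = 0.0023), from 3.51, 8.85 and 2.87 to 23.3, 8.42 and 34.2 CPM, with no rise in mouse 2. Igfbp7 did not pass without mouse 1 (1.4, edgeR adjusted p = 0.16). These 3 genes were also chosen after their values were seen.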
